A study of Mus musculus with 15 samples.

Results

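A set of 10 genes that canonical Wnt signaling is known to switch on, many of which then dampen it, was followed across mouse small intestinal organoids that overexpress SOX9: *Axin2*, *Rnf43*, *Znrf3*, *Nkd1*, *Notum*, *Sp5*, *Ccnd1*, *Cd44*, *Myc* and *Tcf7*. They were listed by gene symbol, with earlier results of these data known, and all 10 were present among the 78298 gene rows of the count files. All 10 passed the filter on low counts. Poly-A RNA was sequenced in 15 libraries, 3 from each of 5 conditions. Organoids came from the small intestine of female C57BL/6J mice aged 8 to 16 weeks, were grown in Matrigel with IntestiCult medium, and were collected 5 days after seeding with 6 wells pooled per line. Every line carried a lentiviral transgene under the weak ubiquitous L30 promoter: V5-tagged Halo-NLS (HaloTag with a nuclear localization signal, the control), Sox9-Halo-V5 or Sox9-mEGFP-V5.

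Each SOX9 line was sampled once with the budding shape of normal organoids (SOX9-Halo_budding, SOX9-mEGFP_budding) and once, at a later passage, as round spheroids (SOX9-Halo_spheroid, SOX9-mEGFP_spheroid). The spheroid libraries also carried a second transgene, H2B-mEGFP-V5 in the SOX9-Halo line and H2B-mScarletI-V5 in the SOX9-mEGFP line, so that shape, time in culture and the H2B transgene cannot be told apart. The lines were initially polyclonal, each SOX9 fusion is represented by a single line, and the sources do not say whether the 3 libraries of a condition came from different animals. The p-values therefore measure the spread between these libraries.

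Wnt ligands bind Frizzled and LRP5/6 receptors, which inactivates the complex that destroys β-catenin, and β-catenin then enters the nucleus and activates genes together with TCF/LEF factors. R-spondins strengthen the signal by removing the receptor-degrading ligases RNF43 and ZNRF3. In the intestine this pathway maintains the stem cells and Paneth cells at the crypt base.

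Promoter sequences from RefSeq were available for 6 of the 10 genes in 8 windows of 300 bases, each from 250 bases before to 50 bases after a transcription start, in the table's build GRCm38.p6, and each window was placed on GRCm39 by its 1 exact match. The windows of 3 genes are shown here because these genes mark the contrasts described below: *Sp5*, lost in SOX9-Halo_spheroid (chr2:70305017-70305316, plus strand), *Nkd1*, raised in the same libraries (chr8:89254011-89254310, plus strand, at a start inside the annotated gene), and *Cd44*, raised in both spheroid conditions (chr2:102731961-102732260, minus strand). Capitals mark the TCF/LEF cores CTTTGAT or CTTTGAA and the SOX cores ACAATG or ACAAAG, searched on both strands.
Sp5: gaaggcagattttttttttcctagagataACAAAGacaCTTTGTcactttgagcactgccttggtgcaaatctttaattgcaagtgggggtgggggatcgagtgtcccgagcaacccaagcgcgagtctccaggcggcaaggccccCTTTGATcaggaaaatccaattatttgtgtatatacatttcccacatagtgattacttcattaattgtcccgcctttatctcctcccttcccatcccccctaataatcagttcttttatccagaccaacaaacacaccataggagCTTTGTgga
Nkd1: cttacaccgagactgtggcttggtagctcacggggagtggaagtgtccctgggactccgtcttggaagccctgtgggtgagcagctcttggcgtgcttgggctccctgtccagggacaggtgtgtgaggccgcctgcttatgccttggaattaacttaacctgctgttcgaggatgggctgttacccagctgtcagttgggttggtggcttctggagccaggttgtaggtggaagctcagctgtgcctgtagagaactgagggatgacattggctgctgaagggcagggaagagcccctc
Cd44: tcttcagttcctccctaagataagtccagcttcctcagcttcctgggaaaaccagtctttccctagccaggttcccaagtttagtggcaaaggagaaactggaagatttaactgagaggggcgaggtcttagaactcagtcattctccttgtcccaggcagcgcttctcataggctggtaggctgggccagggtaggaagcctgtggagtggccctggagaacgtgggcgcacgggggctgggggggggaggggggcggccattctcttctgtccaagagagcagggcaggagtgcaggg
The *Sp5* window held a TCF/LEF core beginning at position -104, counted from the start site, and 3 SOX cores beginning at positions -221, -212 and 42, the last 2 of these on the reverse strand, where they read CTTTGT. That reverse reading shares the letters CTTTG with the TCF/LEF cores, but no match was counted under both. None of the other 7 windows held either core. Of the 32851 promoters in the table, 8.65% held a TCF/LEF core and 28.6% a SOX core. A match is a description of letters, and its absence says nothing about binding elsewhere.

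The reads assigned to genes ranged from 28062722 to 40559766 per library (median 33491297). Reads that fell on no gene made up 1.83% to 6.09%. The genes with a count numbered from 24214 in Halo-NLS replicate 2 to 40375 in Halo-NLS replicate 3. Levels are given as CPM (read counts relative to the size of the library), scaled between libraries by the trimmed mean of M values (TMM), as mean ± SD with n = 3 libraries unless single libraries are given. *Sox9*, the overexpressed gene, was at 15.8 ± 6.91 CPM in Halo-NLS and higher in each of the 12 SOX9 libraries. Its lowest value among them was 39.8 CPM in SOX9-Halo_budding replicate 1, against 314 and 204 CPM in the other replicates of that condition. A gene was called changed when edgeR's quasi-likelihood test gave an adjusted p of at most 0.01 (Benjamini-Hochberg over 17560 genes) together with a 2-fold or larger difference and an average of 10 or more normalized counts. Beside the first count of the 10 genes called in a comparison stands the share of all tested genes called in the same direction. For statements that libraries did not overlap, no share of all genes is given.

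In budding organoids with extra SOX9, *Cd44* was called and the other 9 genes were not. *Cd44* encodes a hyaluronan receptor typical of crypt cells. Its 3 Halo-NLS libraries had 6.74, 5.54 and 5.47 CPM, the SOX9-mEGFP_budding libraries 25.4, 25.7 and 59.3 CPM, and the SOX9-Halo_budding libraries 14.8, 24.7 and 67.2 CPM. The lowest SOX9 budding library lay above the highest control, and replicate 3 was the highest in both lines. The log2 fold change was 2.64 ± 0.48 (SE, edgeR adjusted p = 0.0039) in SOX9-mEGFP_budding and 2.59 ± 0.48 (adjusted p = 0.0042) in SOX9-Halo_budding. Thus 1 of 10 genes was called higher in each comparison, where 1.99% and 2.49% of all genes were, and 0 of 10 lower, where 0.763% and 1.26% were. At an unadjusted p under 0.05, 2 of the 10 genes passed in SOX9-mEGFP_budding and 3 in SOX9-Halo_budding, and DESeq2 called 2 higher in each. Over all genes DESeq2 called 951 and 1106 higher, against 350 and 438 by edgeR. No share of all genes is given for the unadjusted p, so these looser counts have no background of their own. Both budding conditions were set against the same 3 control libraries.

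The *Cd44* call was lost when certain single libraries were left out. For SOX9-mEGFP_budding the edgeR adjusted p was 0.022 without Halo-NLS replicate 2, 0.023 without Halo-NLS replicate 3 and 0.014 without SOX9-mEGFP_budding replicate 3. The *Cd44* log2 fold changes were then 2.60, 2.58 and 2.11. Of all genes, 143, 191 and 195 were then called higher, against 350 with every library and 1839 without Halo-NLS replicate 1. For SOX9-Halo_budding the adjusted p was 0.022, 0.022 and 0.018 without Halo-NLS replicate 2, Halo-NLS replicate 3 and SOX9-Halo_budding replicate 3. The *Cd44* log2 fold changes were 2.55, 2.53 and 1.75. Of all genes, 125, 187 and 151 were then called higher, against 438 with every library and 1986 without Halo-NLS replicate 1. The call held without SOX9-Halo_budding replicate 1, the library with the least *Sox9*.

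*Znrf3*, which encodes a membrane ligase that removes Frizzled receptors, showed the next largest budding values. Its levels were 5.34, 6.33 and 3.33 CPM in Halo-NLS, 11.4, 10.1 and 20.4 CPM in SOX9-mEGFP_budding, and 9.15, 15.4 and 18.1 CPM in SOX9-Halo_budding. The groups did not overlap, but the log2 fold changes of 1.48 (edgeR adjusted p = 0.022) and 1.51 (adjusted p = 0.017) missed the threshold. DESeq2 called both (adjusted p = 0.0024 and 0.0021). *Znrf3* has 8.02 kb of exons, and genes with 5 kb or more had median log2 fold changes of 0.21 and 0.22 in these comparisons, against -0.13 and -0.19 for genes under 2 kb. Across the 4 comparisons with Halo-NLS the medians ran from 0.21 to 0.30 for the long genes and from -0.39 to -0.13 for the short ones. Of the 10 Wnt target genes, 6 have exons of 5 kb or more, and the part of length in their changes was not tested.

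**Figure D1:**
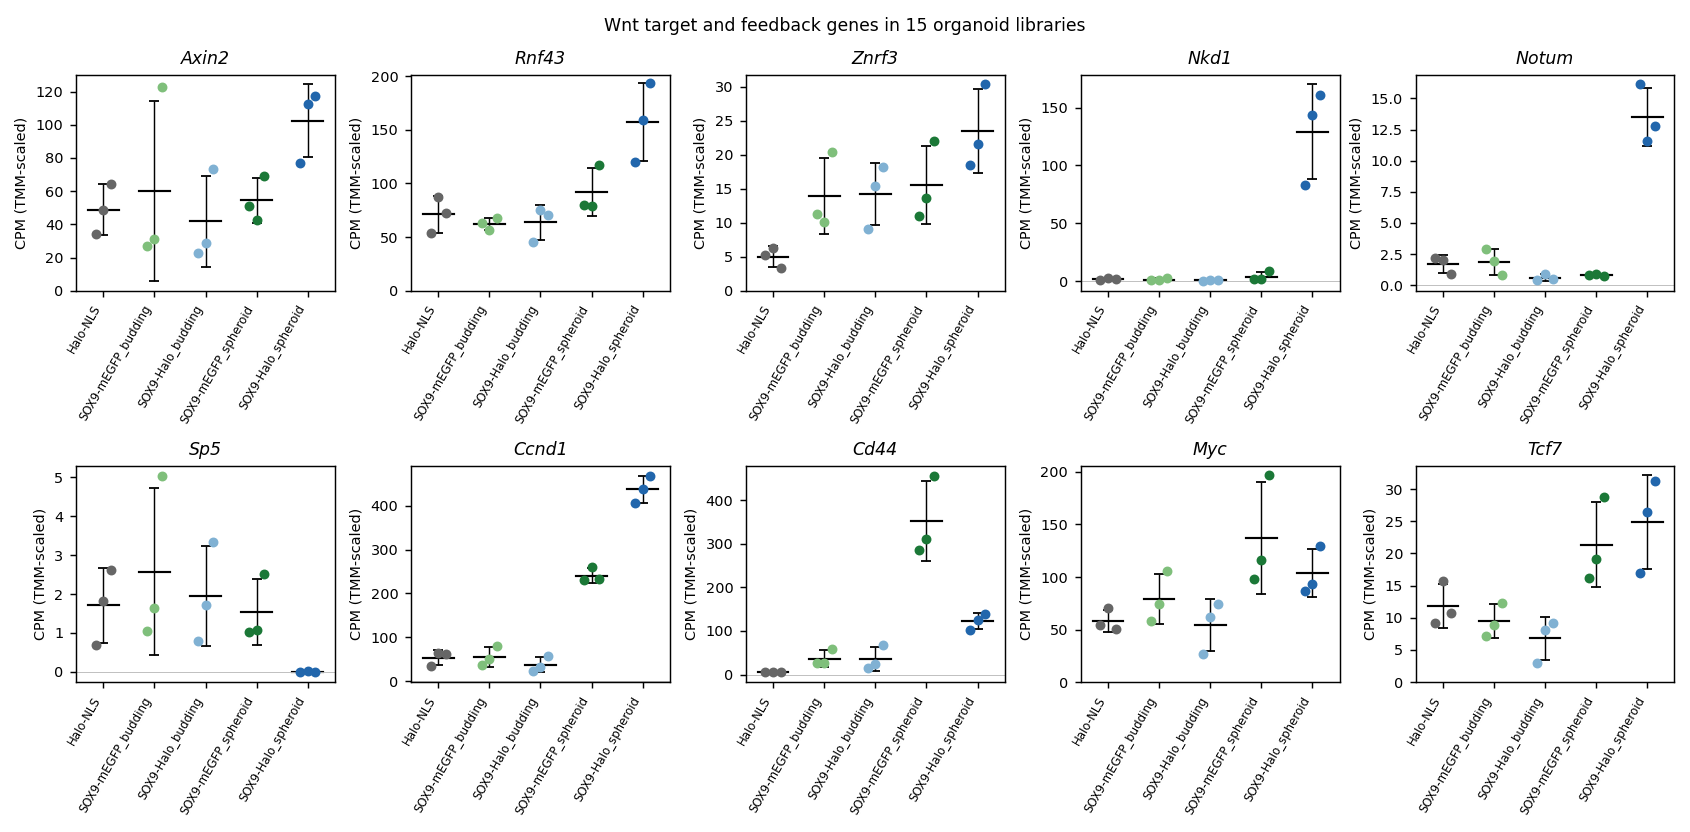
TMM-scaled CPM of the 10 genes (linear axes) in each of the 15 libraries, 3 points per condition, with the mean as a line and the SD as a bar. *Nkd1* and *Notum* stand apart only in SOX9-Halo_spheroid, where *Sp5* is at 0 to 0.028 CPM, while *Ccnd1* and *Cd44* lie above every Halo-NLS library in both spheroid conditions.

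In SOX9-mEGFP_spheroid against Halo-NLS, 3 of the 10 genes were higher (*Cd44*, *Ccnd1* and *Znrf3*; 15.3% of all genes) and 0 lower (12.1% of all genes). The median log2 fold change of the 10 genes was 0.97, against 0.03 for all genes. *Cd44* had 286, 312 and 457 CPM, a log2 fold change of 5.89 ± 0.55 (edgeR adjusted p = 1.1e-06), or 59.4-fold. *Ccnd1*, which encodes cyclin D1, a driver of entry into the cell cycle, rose from 35.0, 64.2 and 61.7 CPM to 230, 259 and 233 CPM. Every spheroid library lay above every control, with a log2 fold change of 2.17 ± 0.34 (adjusted p = 0.00014).

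*Znrf3* was at 11.0, 13.7 and 22.0 CPM in SOX9-mEGFP_spheroid, a log2 fold change of 1.64 ± 0.38 (edgeR adjusted p = 0.0025). The call was lost without Halo-NLS replicate 3 (adjusted p = 0.014) and without SOX9-mEGFP_spheroid replicate 3 (adjusted p = 0.017). *Myc*, a transcription factor of cell growth, lay just outside the threshold. It had 54.5, 70.2 and 50.3 CPM in Halo-NLS and 98.3, 116 and 197 CPM in SOX9-mEGFP_spheroid, with no overlap and a log2 fold change of 1.23 (edgeR adjusted p = 0.011). It passed in DESeq2 (adjusted p = 0.0062), and in edgeR without SOX9-Halo_budding replicate 1 (adjusted p = 0.0036), without SOX9-Halo_budding replicate 3 (0.0093) and without SOX9-mEGFP_spheroid replicate 1 (0.0096).

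The feedback genes *Axin2*, *Rnf43*, *Nkd1* and *Notum*, and the target *Sp5*, were not called in SOX9-mEGFP_spheroid. *Axin2*, a scaffold of the β-catenin destruction complex and a widely used readout of the pathway, was at 51.1, 42.9 and 69.3 CPM there and at 34.0, 48.6 and 64.3 CPM in Halo-NLS. These ranges overlapped almost completely (log2 fold change 0.15 ± 0.53, edgeR adjusted p = 0.82).

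SOX9-Halo_spheroid showed a broader and mixed pattern against Halo-NLS: 6 of the 10 genes were higher (13.6% of all genes) and 1 was lower (15.3% of all genes). *Nkd1*, *Cd44*, *Ccnd1*, *Notum*, *Znrf3* and *Rnf43* rose and *Sp5* fell. The median log2 fold change of the 10 genes was 1.69, against -0.01 for all genes. *Axin2*, *Myc* and *Tcf7* were not called. Without the low-count filter *Axin2* and *Tcf7* were, as given at the end.

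*Nkd1*, which encodes a Dishevelled-binding antagonist of the pathway, showed the largest rise. It was at 1.01, 2.26 and 2.21 CPM in Halo-NLS and at 83.3, 144 and 161 CPM in SOX9-Halo_spheroid. In the other 9 SOX9 libraries it stayed between 0.213 and 8.32 CPM, so the ranges were far apart. The log2 fold change against Halo-NLS was 6.14 ± 0.81 (edgeR adjusted p = 1.9e-05), or 70.5-fold.

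*Notum*, which encodes a secreted enzyme that removes the lipid from Wnt ligands, was at 2.22, 2.05 and 0.899 CPM in Halo-NLS and at 16.1, 11.6 and 12.8 CPM in SOX9-Halo_spheroid. None of the other 12 libraries exceeded 2.90 CPM. The log2 fold change was 2.97 ± 0.45 (edgeR adjusted p = 6.8e-05). Of the *Notum* exon bases, 48.7% are shared with genes on the opposite strand, where reads could not be assigned without strand. The largest of these, *Notumos*, had 0.0731 CPM in Halo-NLS and 0.922 CPM in SOX9-Halo_spheroid.

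The paired ligases that clear Frizzled from the membrane both rose. *Rnf43* went from 53.4, 87.7 and 72.4 CPM to 120, 159 and 193 CPM without overlap, a log2 fold change of 1.14 ± 0.26 (edgeR adjusted p = 0.002). This fell below the 2-fold limit without Halo-NLS replicate 1 (*Rnf43* log2 fold change 0.98) and without SOX9-Halo_spheroid replicate 3 (0.95, adjusted p = 0.015). *Znrf3* reached 18.5, 21.6 and 30.4 CPM, a log2 fold change of 2.23 ± 0.38 (adjusted p = 0.00021).

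*Sp5*, a zinc finger transcription factor and direct Wnt target whose promoter window is printed above, went the other way. It was at 0.701, 1.81 and 2.62 CPM in Halo-NLS, whereas the SOX9-Halo_spheroid libraries held 0, 1 and 0 reads. The 3 control libraries together held 141 reads. After scaling, the control level was 175 times the spheroid level, with an exact 95% interval of 30.8 to 6946 that covers counting error only. The fitted log2 fold change of -6.98 (edgeR adjusted p = 0.00017) depends on the prior count and is no bound. No other condition had lost *Sp5*: its means were 2.57 ± 2.15 CPM in SOX9-mEGFP_budding, 1.95 ± 1.29 in SOX9-Halo_budding and 1.54 ± 0.851 in SOX9-mEGFP_spheroid.

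Of the genes of the cell cycle and the cell surface, *Ccnd1* had 407, 437 and 469 CPM in SOX9-Halo_spheroid, all above the SOX9-mEGFP_spheroid libraries, with a log2 fold change of 3.03 ± 0.36 against Halo-NLS (edgeR adjusted p = 5.8e-06). Of its exon bases 48.4% are shared with *LTO1* on the opposite strand, which ranged only from 12.9 to 15.7 CPM between the 5 conditions. *Cd44* had 102, 126 and 139 CPM, a log2 fold change of 4.37 ± 0.52 (adjusted p = 6e-06). Its levels were below those of SOX9-mEGFP_spheroid in every library.

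The genes not called had smaller differences. *Axin2* was at 77.1, 112 and 118 CPM in SOX9-Halo_spheroid, all above the highest control (log2 fold change 1.06 ± 0.53, edgeR adjusted p = 0.11). *Myc* was at 87.1, 93.8 and 130 CPM (log2 fold change 0.83, adjusted p = 0.068). *Tcf7*, which encodes the TCF family member TCF1, was at 16.9, 26.4 and 31.2 CPM against 9.15, 15.7 and 10.8 CPM (log2 fold change 1.07, adjusted p = 0.035). All 3 lay above their controls without overlap, but not by enough for the threshold given the spread. The share of all genes without overlap in this comparison is not given, so this count has no background of its own.

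**Figure D2:**
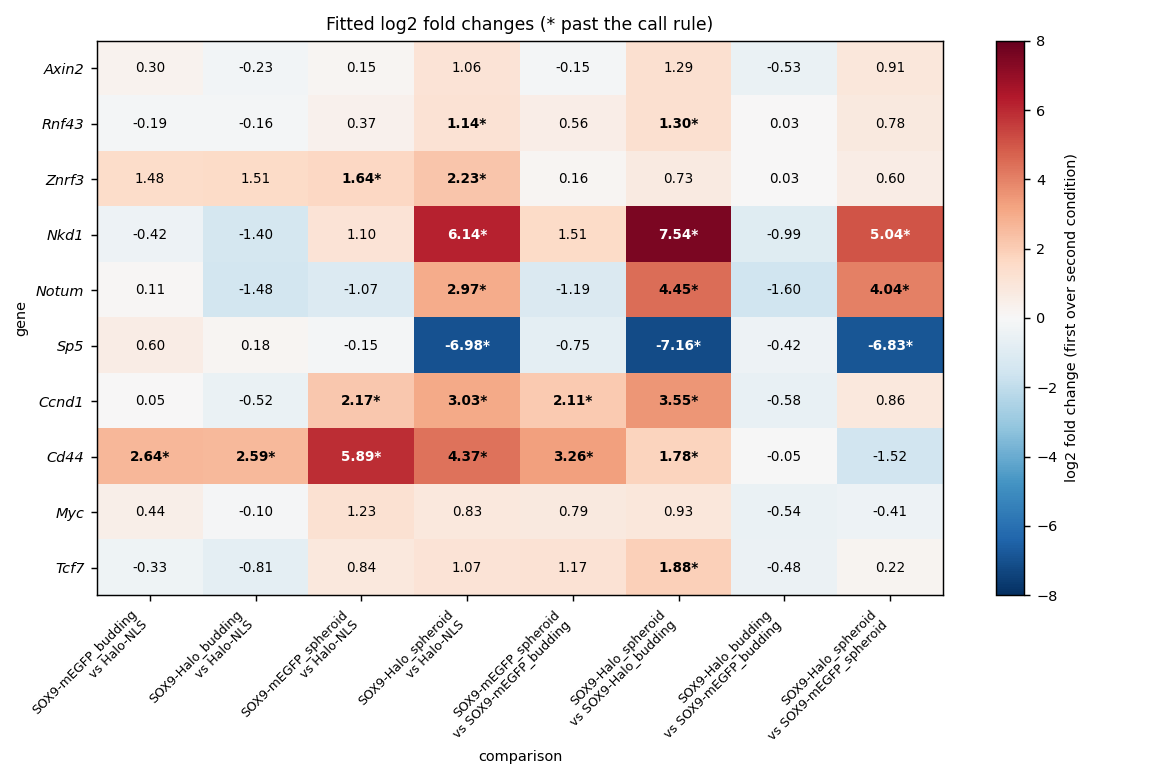
Fitted log2 fold changes of the 10 genes (rows) in 8 comparisons (columns), first condition over second; asterisks mark those past the call rule. *Cd44* is called in 6 comparisons, whereas *Nkd1*, *Notum* and *Sp5* are called in the 3 that contain SOX9-Halo_spheroid.

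Within the SOX9-mEGFP line, the step from budding to spheroid raised 2 of the 10 genes (8.55% of all genes) and lowered 0 (7.88%). *Ccnd1* rose from 35.7, 51.2 and 80.05 CPM in budding organoids to the spheroid levels above (log2 fold change 2.11 ± 0.34, edgeR adjusted p = 0.00026), and *Cd44* rose by 3.26 ± 0.48 on the log2 scale (adjusted p = 0.00012). *Notum* was at 2.90, 1.95 and 0.812 CPM in budding and 0.820, 0.925 and 0.710 CPM in spheroid libraries. It was not called (adjusted p = 0.062) but passed as lower without SOX9-mEGFP_budding replicate 3 (log2 fold change -1.61, adjusted p = 0.0085). *Tcf7* went from 7.17, 8.88 and 12.3 CPM to 16.1, 19.1 and 28.7 CPM and was not called (log2 fold change 1.17 ± 0.39, edgeR adjusted p = 0.035). *Rnf43* was not called either (log2 fold change 0.56 ± 0.26, adjusted p = 0.13).

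Within the SOX9-Halo line, 6 of the 10 genes rose from budding to spheroid (10.5% of all genes) and 1 fell (14.7%). *Nkd1* started from 0.213, 0.957 and 0.930 CPM and rose 186-fold (log2 fold change 7.54 ± 0.87, edgeR adjusted p = 5.4e-06). *Notum* started from 0.403, 0.928 and 0.523 CPM and rose 21.9-fold (4.45 ± 0.49 on the log2 scale, adjusted p = 3e-06). *Ccnd1* rose 11.7-fold from 23.1, 32.5 and 56.6 CPM (adjusted p = 1.6e-06).

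*Tcf7* rose from 3.03, 8.15 and 9.16 CPM, a log2 fold change of 1.88 ± 0.40 (edgeR adjusted p = 0.0014), and *Rnf43* from 45.4, 75.3 and 71.0 CPM, a log2 fold change of 1.30 ± 0.26 (adjusted p = 0.00083). *Sp5* fell from 208 reads in the 3 budding libraries to 1 read, a scaled ratio of 189 (exact 95% interval 33.6 to 7513, counting error only).

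*Cd44* rose by 1.78 ± 0.46 on the log2 scale (edgeR adjusted p = 0.0055). This call was lost without SOX9-Halo_budding replicate 1 (*Cd44* adjusted p = 0.021) or replicate 2 (0.025), and without SOX9-Halo_spheroid replicate 2 (0.019) or replicate 3 (0.024). *Axin2* was at 22.9, 29.0 and 73.5 CPM in budding libraries, all below the spheroid libraries (log2 fold change 1.29 ± 0.53, adjusted p = 0.067). It was called once the replicate number was included as a block within this line (log2 fold change 1.42, adjusted p = 0.0033), which made 7 genes higher. It was also called without SOX9-mEGFP_budding replicate 3, a library of the other line that enters the shared estimate of spread (adjusted p = 0.0097).

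*Axin2* was uneven among the budding libraries. In SOX9-mEGFP_budding it was at 27.1, 31.0 and 123 CPM and in SOX9-Halo_budding at 22.9, 29.0 and 73.5 CPM, so that replicate 3 stood above the others in both. The summed CPM of 14 proliferation genes was likewise highest in replicate 3, at 820, 1045 and 1819 in SOX9-mEGFP_budding and 1207, 883 and 1880 in SOX9-Halo_budding. Reads that fell on no gene were also most frequent in replicate 3. They made up 3.4, 2.4 and 4.5% in SOX9-mEGFP_budding and 4.1, 2.4 and 4.7% in SOX9-Halo_budding. The genes with a count numbered 30686, 25797 and 34646 in SOX9-mEGFP_budding and 33726, 25669 and 32023 in SOX9-Halo_budding. The part of proliferation or of library quality in the *Axin2* levels was not tested. The 5 genes whose log2 CPM over the 15 libraries most resembled that of *Axin2* were *Ddx31*, *Ssrp1*, *Rrp1b*, *Wdr77* and *Racgap1*, with Pearson's r from 0.90 to 0.93, a description over libraries that share conditions and depth.

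The lines were then compared directly. Between the budding conditions, SOX9-Halo against SOX9-mEGFP, 0 of the 10 genes were called higher (0.29% of all genes) or lower (0.165%) by edgeR. DESeq2 called 0 as well, while 1 had an unadjusted edgeR p under 0.05, for which no share of all genes is given. Between the spheroid conditions, 2 genes were higher in the SOX9-Halo line (3.59% of all genes) and 1 lower (9.58%). *Nkd1* was at 1.40, 2.06 and 8.32 CPM in SOX9-mEGFP_spheroid, a log2 difference of 5.04 ± 0.76 (edgeR adjusted p = 0.00017). *Notum* differed by 4.04 ± 0.47 on the log2 scale (adjusted p = 1.5e-05), and *Sp5* had 164 reads in SOX9-mEGFP_spheroid against 1 (adjusted p = 0.00049).

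*Cd44* was lower in SOX9-Halo_spheroid than in SOX9-mEGFP_spheroid without overlap, with a log2 difference of -1.52 ± 0.45 that missed the threshold (edgeR adjusted p = 0.023). It passed in DESeq2 (adjusted p = 0.0069), and in edgeR without SOX9-Halo_budding replicate 1 (0.0094) or replicate 3 (0.0039), which left 2 genes lower.

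The step from budding to spheroid was also compared between the lines by a test of the difference itself. It was positive, a larger rise in the SOX9-Halo line, for 2 of the 10 genes (1.81% of all genes) and negative for 1 (5.58%). *Nkd1* differed by 6.03 ± 1.04 on the log2 scale (edgeR adjusted p = 0.001), *Notum* by 5.64 ± 0.65 (adjusted p = 3.2e-05) and *Sp5* by -6.41 ± 1.41 (adjusted p = 0.0063). The *Sp5* value depends on the prior count, and its adjusted p rose to between 0.011 and 0.026 when any of 7 single libraries was left out: SOX9-Halo_budding replicate 3, SOX9-mEGFP_budding replicate 1 or 2, any SOX9-Halo_spheroid library, or SOX9-mEGFP_spheroid replicate 3. *Ccnd1* rose in both lines, with a line difference of 1.44 ± 0.47 (adjusted p = 0.059) that passed only without SOX9-Halo_budding replicate 3 among the libraries left out (adjusted p = 0.0091). For *Cd44* the line difference was -1.47 ± 0.63 (adjusted p = 0.17). *Rnf43* and *Tcf7*, called only within the SOX9-Halo line, had line differences of 0.74 ± 0.36 (adjusted p = 0.23) and 0.71 ± 0.55 (adjusted p = 0.5).

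**Figure D3:**
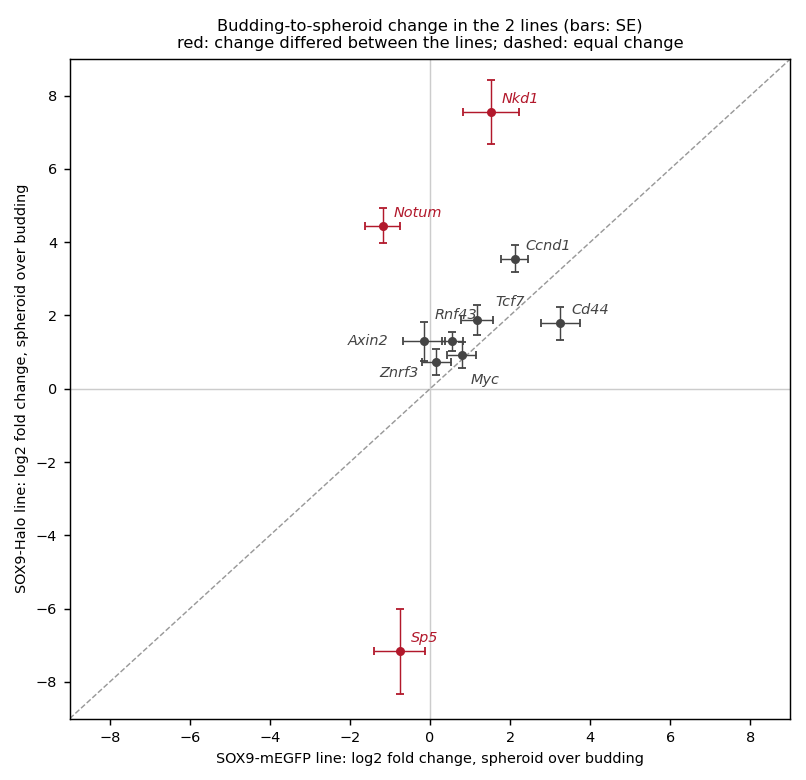
Log2 fold change from budding to spheroid in the SOX9-mEGFP line (x axis) and the SOX9-Halo line (y axis) for the 10 genes, with SE bars and a dashed line of equal change. *Nkd1* and *Notum* (above the dashed line) and *Sp5* (below it), in red, are the genes whose change differed between the lines; *Ccnd1* and *Cd44* lie in the upper right quadrant.

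Ordered by mean level over the 5 conditions, 6 of the 40 pairs of neighbouring conditions differed past the call rule. SOX9-Halo_spheroid stood alone at the top for *Nkd1* and *Notum* and alone at the bottom for *Sp5*. For *Notum* its neighbour was SOX9-mEGFP_budding (edgeR adjusted p = 9.8e-05; 10.4% of all genes were higher in SOX9-Halo_spheroid than there). For *Ccnd1* the break lay between SOX9-mEGFP_spheroid and SOX9-mEGFP_budding. *Cd44* had 2 breaks, one between SOX9-Halo_spheroid and SOX9-mEGFP_budding (adjusted p = 0.0066) and one between SOX9-Halo_budding and Halo-NLS. For *Axin2*, *Rnf43*, *Znrf3*, *Myc* and *Tcf7* no neighbours passed the call rule. Among these pairs, *Znrf3* in SOX9-mEGFP_budding and Halo-NLS, given above, did not overlap. Nor did *Rnf43* in SOX9-Halo_spheroid and SOX9-mEGFP_spheroid (log2 difference 0.78, edgeR adjusted p = 0.039). The same held for *Tcf7* in SOX9-mEGFP_spheroid and Halo-NLS (log2 difference 0.84, adjusted p = 0.084).

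Set side by side per kilobase of exon, *Ccnd1* was at 11.2 CPM per kb in Halo-NLS, 50.3 in SOX9-mEGFP_spheroid and 91.5 in SOX9-Halo_spheroid, and *Myc* was at 21.4, 50.2 and 37.9 CPM per kb. Reads on exon bases shared with another gene were not counted, which touches *Ccnd1* and *Notum* most. Over the 2.47 kb of *Ccnd1* exons that no other gene shares, its levels were 21.7, 97.5 and 177 CPM per kb, and over the 2.63 kb of *Myc* they were 22.2, 52.2 and 39.4. By this measure *Ccnd1* and *Myc* were close in Halo-NLS, and *Ccnd1* had the highest mean of the 10 genes in both spheroid conditions. *Rnf43* was at 11.8 CPM per unshared kb in Halo-NLS and 26.04 in SOX9-Halo_spheroid, and *Cd44* at 53.5 in SOX9-mEGFP_spheroid. *Nkd1*, whose exons are not shared, went from 0.221 CPM per kb in Halo-NLS to 15.7 in SOX9-Halo_spheroid, close to *Axin2* at 15.2 CPM per unshared kb. *Notum* reached 4.95 CPM per unshared kb there, or 2.54 over all its exon bases.

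Cell type markers moved with these changes. Of all genes, 15.3% were higher and 12.1% lower in SOX9-mEGFP_spheroid than in Halo-NLS, and 13.6% and 15.3% in SOX9-Halo_spheroid, which is the background for the marker counts. Of 9 Paneth cell markers, 9 were lower in SOX9-Halo_spheroid than in Halo-NLS, and their summed level was 3.35 to 5.93 CPM against 1533 to 1979. In SOX9-mEGFP_spheroid 7 were lower and 1, *Mmp7*, was higher, with a summed level of 1119 to 1358 CPM. Nearly all of that sum was *Mmp7*: the other 8 markers summed to 12.9 to 31.1 CPM, against 1519 to 1962 in Halo-NLS. Of 10 intestinal epithelium markers, 6 were lower and 1 (*Krt18*) higher in SOX9-Halo_spheroid, with *Cdx1* and *Cdx2*, the transcription factors that define intestinal identity, at 0.168 and 2.69 CPM on average against 366 and 438 in Halo-NLS. In SOX9-mEGFP_spheroid 2 were lower (*Cdx1* and *Cdx2*) and 1 higher (*Krt18*), and *Cdx2* was at 76.8 CPM. In these bulk samples fewer cells of a type and less RNA per cell cannot be told apart, and the part of cell composition in the Wnt target levels was not tested.

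Of the 14 proliferation genes, 0 were called by edgeR or by DESeq2 in any of the 4 comparisons with Halo-NLS. At an unadjusted edgeR p under 0.05 there were 1 in SOX9-mEGFP_budding, 2 in SOX9-Halo_budding, 2 in SOX9-mEGFP_spheroid and 1 in SOX9-Halo_spheroid. Between the spheroid conditions 0 of 14 were called by either tool, and 7 had an unadjusted edgeR p under 0.05. The median log2 difference over the 14 genes was 0.55 (SOX9-Halo over SOX9-mEGFP), against -0.05 for all genes. Shares of all genes are not given for the unadjusted p, so these looser counts have no background of their own. Many genes differed between the spheroid conditions. At an edgeR adjusted p of at most 0.05 without a minimum fold, 1354 genes were higher and 2517 lower in SOX9-Halo_spheroid. Whether the 7 exceed that background was not tested.

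Of the epithelial genes, *Cdh1* was at 614 CPM in Halo-NLS and 857 CPM in SOX9-Halo_spheroid and *Krt8* at 2782 and 1989 CPM. *Epcam* (993 and 461 CPM), *Vil1* (1411 and 118) and *Lgals4* (3871 and 54.7) were among the 6 called lower there. The 8 fibroblast markers summed to 9.40 CPM or less in every library and the 8 immune and endothelial markers to 5.68 CPM or less. Of the fibroblast markers 2 (*Pdgfrb* and *Vim*) were lower in each spheroid condition than in Halo-NLS. Of the immune and endothelial markers 1 (*Csf1r*) was higher in SOX9-mEGFP_spheroid and 1 (*Itgam*) lower in SOX9-Halo_spheroid.

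The rest of the pathway was examined in 6 lists with 78 genes, of which 54 passed the filter. In SOX9-mEGFP_spheroid 16 of the 54 were higher and 9 lower than in Halo-NLS (median log2 fold change -0.24, all genes 0.03), and in SOX9-Halo_spheroid 8 were higher and 13 lower (median -0.17, all genes -0.01). As shares of the 54, these were 29.6% higher and 16.7% lower in SOX9-mEGFP_spheroid (all genes 15.3% and 12.1%), and 14.8% higher, near the background, and 24.1% lower in SOX9-Halo_spheroid (all genes 13.6% and 15.3%). In SOX9-mEGFP_budding 3 were higher (*Lgr4*, *Wls* and *Mmp7*) and 0 lower. In SOX9-Halo_budding 3 were higher (*Lgr4*, *Wls* and *Amer1*) and 3 lower (*Porcn*, *Id3* and *Mmp7*). The shares of the 54 were 5.56% higher and 0% lower in SOX9-mEGFP_budding (all genes 1.99% and 0.763%). They were 5.56% higher and 5.56% lower in SOX9-Halo_budding (all genes 2.49% and 1.26%).

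Of the R-spondin receptors and Wnt co-receptors, 7 of 9 were tested. *Lgr4*, *Lgr5* and *Lrp6* were higher and *Ptk7* lower in SOX9-mEGFP_spheroid, whereas *Lrp5* was higher and *Ror2* and *Ptk7* lower in SOX9-Halo_spheroid. Of the 7, 42.9% were higher and 14.3% lower in SOX9-mEGFP_spheroid (all genes 15.3% and 12.1%). The shares in SOX9-Halo_spheroid were 14.3% and 28.6% (all genes 13.6% and 15.3%). *Lrp5*, a co-receptor of Frizzled, went from 234 ± 54.0 CPM in Halo-NLS to 518 ± 25.3 CPM in SOX9-Halo_spheroid, with 284 ± 86.4 CPM in SOX9-mEGFP_spheroid. *Lgr4*, an R-spondin receptor, was at 30.6 ± 17.0 CPM in Halo-NLS, 85.6 ± 4.07 in SOX9-mEGFP_spheroid and 26.7 ± 3.21 in SOX9-Halo_spheroid. The Wnt co-receptor *Ryk*, the other abundant gene of the list, was not called.

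*Wls*, the carrier that brings Wnt ligands to the cell surface, was called higher in all 4 SOX9 conditions. It was at 17.4 ± 4.16 CPM in Halo-NLS, 41.9 ± 4.92 in SOX9-mEGFP_budding, 44.0 ± 3.39 in SOX9-Halo_budding, 145 ± 16.6 in SOX9-mEGFP_spheroid and 201 ± 44.5 in SOX9-Halo_spheroid. Of the 6 genes for Wnt secretion and R-spondins 3 were tested. *Porcn*, which lipidates Wnt ligands, was at 9.68 ± 2.10 CPM in Halo-NLS and was called lower in SOX9-Halo_budding, at 4.18 ± 1.02 CPM. *Rspo4*, an R-spondin, had 164 reads in the Halo-NLS libraries, 1 in SOX9-mEGFP_spheroid and 0 in SOX9-Halo_spheroid, and was called lower in both spheroid conditions.

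Of 17 other antagonists 4 were tested. *Apcdd1*, a membrane inhibitor of Wnt signaling, had 626 reads in the Halo-NLS libraries (7.62 ± 3.71 CPM), 14 in SOX9-mEGFP_spheroid and 2 in SOX9-Halo_spheroid, and was called lower in both. *Tpbg* was lower in SOX9-Halo_spheroid, at 0.0555 CPM against 1.09 ± 0.377. *Kremen1* was not called in either spheroid condition against Halo-NLS. Thus *Nkd1* and *Notum* rose in SOX9-Halo_spheroid while *Apcdd1* and *Tpbg* fell in the same libraries.

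Of the 17 cytoplasmic transducers and destruction complex genes 16 were tested. *Ctnnb1*, which encodes β-catenin, was at 427 ± 71.4 CPM in Halo-NLS, 636 ± 41.2 in SOX9-mEGFP_spheroid and 530 ± 73.9 in SOX9-Halo_spheroid and was not called. In SOX9-mEGFP_spheroid 7 were higher and 1, *Dvl1*, lower (log2 fold change -1.13, edgeR adjusted p = 0.0024). As shares these were 43.75% higher and 6.25% lower, against 15.3% and 12.1% of all genes. *Apc* was among the 7 (log2 fold change 2.68, adjusted p = 0.0035), as was *Csnk1a1* (1.39, adjusted p = 0.0011). In SOX9-Halo_spheroid 3 were higher (*Tnks*, *Tnks2* and *Amer1*), a share of 18.75% near the 13.6% of all genes, and 0 lower (15.3% of all genes). The 3 were led by *Tnks2*, a tankyrase that marks AXIN for destruction, at 276 ± 13.8 CPM against 46.2 ± 38.4. The large spread of *Tnks2* and *Apc* (8.61 ± 7.35 CPM) in Halo-NLS stands beside these values. *Csnk1d* was not called in either.

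Of the 14 TCF/LEF factors and nuclear partners 12 were tested. In SOX9-mEGFP_spheroid 0 were higher and 2 lower (*Tle3* and *Ctnnbip1*), a share of 16.7% lower near the 12.1% of all genes. In SOX9-Halo_spheroid 1 was higher and 5 (*Tle1*, *Tle2*, *Tle3*, *Ctnnbip1* and *Bcl9*) were lower, 41.7% against 15.3% of all genes. *Tle3*, a co-repressor that TCF factors recruit, was at 69.3 ± 16.2 CPM in Halo-NLS, 32.8 ± 6.37 in SOX9-mEGFP_spheroid and 12.7 ± 0.955 in SOX9-Halo_spheroid. *Tle1* was lower in SOX9-Halo_spheroid alone among the spheroid conditions (37.8 ± 4.03 against 146 ± 19.4 CPM), and *Tle4* was higher there (53.0 ± 9.03 against 21.5 ± 9.56 CPM). *Ctnnbip1*, an inhibitor of β-catenin binding to TCF, went from 30.8 ± 6.17 CPM to 8.49 ± 0.828 in SOX9-mEGFP_spheroid and 11.9 ± 0.814 in SOX9-Halo_spheroid, both called. *Bcl9l* was not called in either. *Tle5* was not called because it stayed short of the 2-fold limit. Its log2 fold change was -0.84 (edgeR adjusted p = 0.0034) in SOX9-mEGFP_spheroid and -0.999 (adjusted p = 0.00087) in SOX9-Halo_spheroid. Its levels were 868 ± 82.0 CPM in Halo-NLS, 485 ± 69.2 in SOX9-mEGFP_spheroid and 434 ± 27.9 in SOX9-Halo_spheroid.

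Of 15 other intestinal Wnt targets 12 were tested, and 5 were higher (*Id2*, *Id3*, *Fosl1*, *Mmp7* and *Tnfrsf19*) and 3 lower (*Prox1*, *Smoc2* and *Zfp703*) in SOX9-mEGFP_spheroid. In SOX9-Halo_spheroid 2 were higher (*Fosl1* and *Tnfrsf19*) and 3 lower (*Id3*, *Mmp7* and *Smoc2*). As shares of the 12, 41.7% were higher and 25% lower in SOX9-mEGFP_spheroid (all genes 15.3% and 12.1%). The shares in SOX9-Halo_spheroid were 16.7%, near the 13.6% of all genes, and 25% (all genes 15.3%). *Mmp7*, a matrix protease of Paneth cells that is also on the Paneth list, was at 13.9 ± 2.99 CPM in Halo-NLS, 1246 ± 122 in SOX9-mEGFP_spheroid and 0.431 ± 0.0597 in SOX9-Halo_spheroid, called in opposite directions. *Smoc2*, a crypt base gene, fell from 183 ± 90.1 CPM to 3.78 ± 4.91 in SOX9-mEGFP_spheroid and 10.3 ± 2.89 in SOX9-Halo_spheroid. *Tnfrsf19* (Troy), a receptor of crypt stem cells, was called higher in both, at 12.5 ± 4.44 and 56.3 ± 9.94 CPM against 1.41 ± 0.482. *Ephb2* was not called in either.

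**Figure D4:**
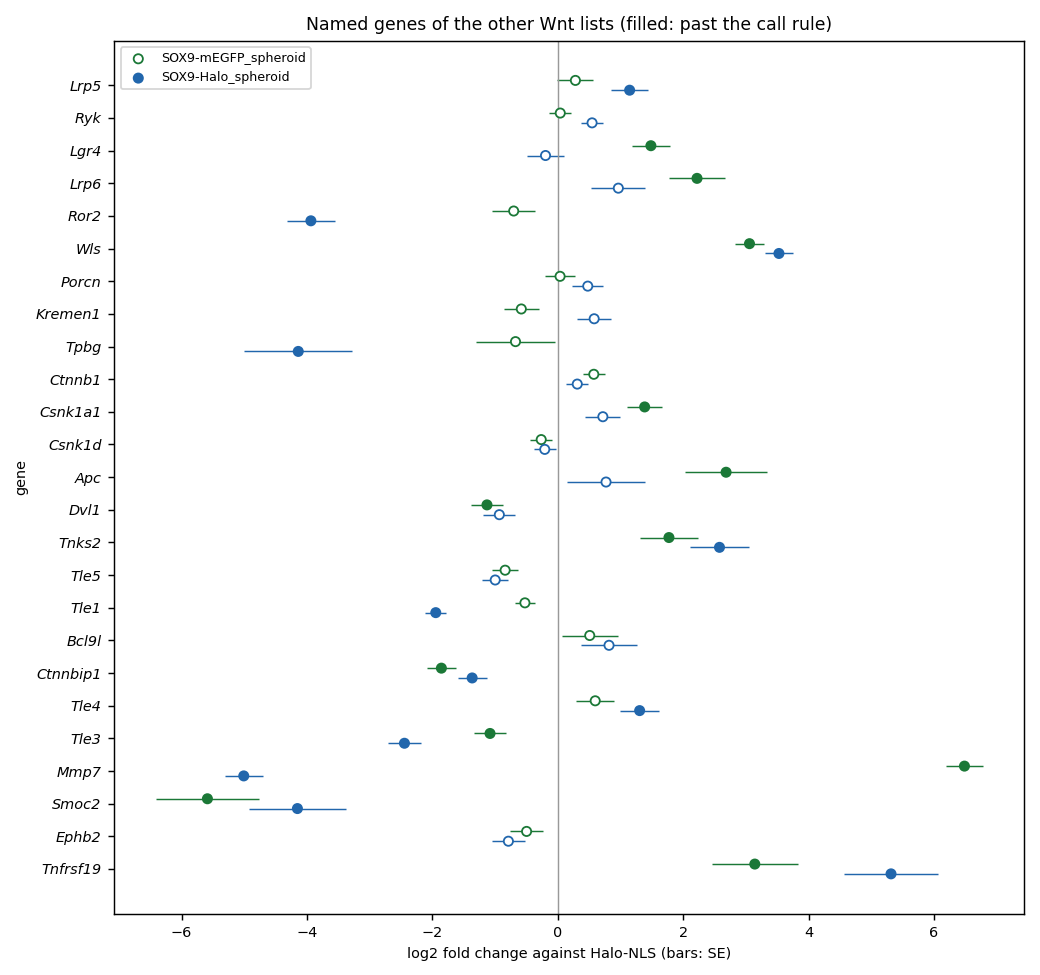
Log2 fold change against Halo-NLS (x axis, SE bars) of the named genes from the other 6 Wnt lists (y axis) in the spheroid conditions, filled where past the call rule; genes with at most 3 reads in a spheroid condition are left out. *Wls* lies at 3.06 and 3.53 in SOX9-mEGFP_spheroid and SOX9-Halo_spheroid, and *Mmp7* at 6.49 and -5.01.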

How the data were processed

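Poly-A RNA of 15 mouse organoid libraries, 3 per condition, was sequenced as paired reads. The authors trimmed the reads with cutadapt 4.5, aligned them with STAR to mm39 (GRCm39) keeping unique alignments, and deposited unnormalized read counts per gene from HTSeq 2.0.2, counted in union mode without strand. Reads on bases that genes share are therefore ambiguous and uncounted. The deposited tables of the authors' own DESeq2 comparisons, with fold changes and p-values, were not used. The 10 genes and all lists were chosen with earlier results of these data known.

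Here the counts were scaled by TMM and tested with edgeR 4.0.16 in R 4.3.3 (quasi-likelihood F test, filterByExpr by condition, 1 coefficient per condition over all 15 libraries, 10 residual degrees of freedom), with Benjamini-Hochberg adjustment over 17560 genes. The thresholds (adjusted p of at most 0.01, at least 2-fold, mean normalized count of at least 10) are those the study used. Each SE was obtained from the fitted change and its F statistic (change over root F). The pipeline was tested on simulated data. DESeq2 1.42.0 was an alternative, and the others were DESeq2 size factors, library sizes alone, no low-count filter, the compared libraries only, a replicate block, an adjusted p of at most 0.05 with no minimum fold, and each library left out in turn.

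GENCODE M39 gave exon lengths and overlaps (78168 of 78298 gene identifiers matched). Named from the other Wnt lists were up to 3 most abundant tested genes and the called gene with the largest rise and fall in each spheroid condition, from a mean of 1 CPM. Other called genes, named where a count was 5 or fewer, and the marker genes given with values were chosen after their values were seen. The 5 genes most like *Axin2* were taken from tested genes with a mean of 10 CPM or more.

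Samples with the same replicate number were checked for pairing by the correlation of their deviations from the condition means over 11069 genes. In 1 of 10 pairs of conditions, SOX9-Halo_budding and SOX9-Halo_spheroid, all 3 correlations exceeded 0.1 (0.42, 0.25 and 0.38), and a block within that line was added after seeing the data. Elsewhere the numbers were taken to name libraries only, although single correlations could be high. Between Halo-NLS and SOX9-Halo_budding they were 0.48, 0.83 and -0.10 for replicates 1, 2 and 3. Between SOX9-Halo_budding and SOX9-mEGFP_budding they were 0.02, 0.37 and 0.74. The source of these likenesses was not tested.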

Additional observations from a re-analysis of the deposited data

Results flagged for a closer look

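Between the SOX9-Halo and SOX9-mEGFP lines, the step from budding to spheroid was unequal for 3 of the 10 Wnt target genes by edgeR's test of that difference (adjusted p of at most 0.01 over all genes). For *Nkd1* the log2 change was larger by 6.03 in the SOX9-Halo line, whose 3 spheroid libraries were all above the 3 budding libraries. For *Notum* it was larger by 5.64, with all 3 SOX9-Halo spheroid libraries above their budding libraries. For *Sp5* the difference was -6.41, with all 3 SOX9-Halo spheroid libraries below their budding libraries, and it rests on 1 read in the SOX9-Halo spheroid libraries.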

How the results depend on the processing

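Of the 27 changes of Wnt target genes called, 21 were called under every alternative, and 0 changed direction. The remaining 6 were *Cd44* in 3 comparisons, *Znrf3*, *Rnf43* and the *Sp5* line difference. Their values with single libraries left out are given above; the cause was not tested. With only the compared libraries, which leaves fewer residual degrees of freedom, the *Cd44*, *Znrf3* and *Rnf43* calls were lost (adjusted p from 0.01, above the threshold before rounding, to 0.066), and with library sizes alone the *Cd44* rise within the SOX9-Halo line was (0.013). Without the low-count filter, the number of genes called higher became 2 in each budding condition against Halo-NLS, 5 in SOX9-mEGFP_spheroid against Halo-NLS, 4 within the SOX9-mEGFP line and 4 for the line difference, and the number called lower became 2 in SOX9-Halo_budding against Halo-NLS, 2 between the spheroid conditions and 2 for the line difference. That setting also called *Axin2* (log2 fold change 1.15, edgeR adjusted p = 0.00053) and *Tcf7* (1.12, adjusted p = 0.0037) higher in SOX9-Halo_spheroid against Halo-NLS. Within the SOX9-Halo line it called *Axin2* higher (1.32, adjusted p = 5e-05). With DESeq2 the number was 2 higher in each budding condition, 4 higher in SOX9-mEGFP_spheroid against Halo-NLS and 2 lower between the spheroid conditions. With only the compared libraries it was 0 higher in each budding condition and 2 lower between the spheroid conditions. With library sizes alone it was 2 higher in SOX9-Halo_budding, and *Myc* was added in SOX9-mEGFP_spheroid against Halo-NLS. This scaling moved the median log2 fold change of all genes to between 0.27 and 0.31 in the comparisons with Halo-NLS. An adjusted p of at most 0.05 without a minimum fold gave 2 higher in each budding condition, 1 lower in SOX9-Halo_budding and 2 lower between the spheroid conditions. It also added, as higher, *Myc* in SOX9-mEGFP_spheroid and *Tcf7* in SOX9-Halo_spheroid against Halo-NLS. *Tcf7* within the SOX9-mEGFP line and *Rnf43* between the spheroid conditions were added as higher too. The calls over all genes moved too. Higher than Halo-NLS were 350 genes in SOX9-mEGFP_budding and 438 in SOX9-Halo_budding in the main fit. These became 1730 and 1933 without the filter, 951 and 1106 with DESeq2, and 65 and 5 with only the compared libraries. Library sizes alone gave 1068 in SOX9-Halo_budding, and the looser threshold 1535 and 1914. In SOX9-mEGFP_spheroid 2690 became 3466 without the filter, 2820 with DESeq2 and 3333 with library sizes alone. In SOX9-Halo_spheroid 2392 became 3032 without the filter. Without it, 1501 became 1731 within the SOX9-mEGFP line and 1851 became 2009 within the SOX9-Halo line. For the line difference 318 higher became 471 and 979 lower became 1410. Between the spheroid conditions 1683 lower became 2169.

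With single libraries left out, the number higher ran from 0 to 1 in each budding condition, from 2 to 4 in SOX9-mEGFP_spheroid and from 5 to 6 in SOX9-Halo_spheroid against Halo-NLS, from 5 to 7 within the SOX9-Halo line and from 2 to 3 for the line difference, and the number lower from 0 to 1 within the SOX9-mEGFP line, from 1 to 2 between the spheroid conditions and from 0 to 1 for the line difference. Leaving 1 library out of 3 also reduces the residual degrees of freedom. The calls over all genes moved as well. Higher in SOX9-mEGFP_spheroid than in Halo-NLS were 3522 genes without Halo-NLS replicate 1 and 2209 without Halo-NLS replicate 3. A replicate block over all libraries, where the numbers do not pair most conditions, gave 2 genes lower between the spheroid conditions, 4 higher in SOX9-mEGFP_spheroid and 7 in SOX9-Halo_spheroid against Halo-NLS, and 3 and 7 higher within the SOX9-mEGFP and SOX9-Halo lines; the genes gained were *Cd44*, *Myc*, *Tcf7* and *Axin2*. Over all genes this block also gave more calls than the main fit. Higher than Halo-NLS were 2951 against 2690 in SOX9-mEGFP_spheroid and 2570 against 2392 in SOX9-Halo_spheroid. Within the SOX9-mEGFP and SOX9-Halo lines 1627 against 1501 and 1972 against 1851 were higher. Between the spheroid conditions 1837 against 1683 were lower. The block within the SOX9-Halo line changed only the *Axin2* call. Low counts limit *Sp5* and *Notum*, which reached at most 5.03 and 2.90 CPM outside the SOX9-Halo_spheroid libraries.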
